A study of Mus musculus with 12 samples.

Results

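Gene expression in blood stem and progenitor cells of Mll5-/- mice that drank NAC was compared with that of wild-type mice that did not. The comparison takes 6 of the 12 arrays of the series, 3 from each group, chosen by genotype and treatment as the labels give them. Both groups are LSK cells of C57BL/6 mice: marrow cells that lack the markers of mature lineages and display Sca1 and Kit, taken straight from the sort without culture. The treated mutant (mutant NAC) was Mll5-/- and had 1 g per liter of NAC in its drinking water, given from the mating of its Mll5+/- parents onwards and for life. The untreated wild type (wild-type mock) went without NAC. The untreated mutant (mutant mock) and the treated wild type (wild-type NAC), with 3 arrays each, are given beside them as values. The 2 groups differ in genotype and in NAC at once, so that from these 6 arrays alone the effects of deletion and drug cannot be told apart. Whether each array stands for its own mouse is not in the labels, and neither is the age of the mice. The p-values therefore describe the spread among these arrays, and that spread may be technical.

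Mll5, now named Kmt2e, is a large nuclear protein of the MLL family, with a PHD finger that binds methylated histone H3, and is known for its part in the function of blood stem cells. NAC, N-acetylcysteine, supplies cysteine for the synthesis of glutathione and is used to lower reactive oxygen species. The LSK fraction holds long-term stem cells and the multipotent progenitors that begin to express genes of the lymphoid, myeloid, erythroid or megakaryocyte fates before they leave it. The series names DNA damage, reactive oxygen species, type I interferon and the BH3-only protein Bid as its subject, and this pair of groups asks how far the treated mutant lies from the untreated normal state.

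Values are log2 signals after RMA, and a difference is the mean of mutant NAC minus the mean of wild-type mock, so that 1 on this scale is a 2-fold change. Of 22180 genes tested with limma, 7 passed an adjusted p of 0.05, which is 0.0316% of all genes. Of these, 5 were lower in the treated mutant (AI506816, Lax1, Asb13, Chrnb1 and Btg2) and 2 were higher (Igkj1 and Nudcd2). At an adjusted p under 0.10 the count was 51 (0.23%), with 19 higher (0.0857%) and 32 lower (0.144%). Without adjustment 2330 genes had a p under 0.05, or 10.5% of all genes, where 1109 would be expected if no gene differed. A log2 difference of at least 1 in size was measured for 112 genes, or 0.505%. The median difference over all genes was 0, and the median standard error of a difference was 0.16.

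The other comparisons of the series share arrays with this one and are given side by side. Mutant NAC against mutant mock called 1 gene (0.00451% of all) and had 1299 genes (5.86%) at an unadjusted p under 0.05. Mutant mock against wild-type mock called 2 (0.00902%) and had 1471 (6.63%), and wild-type NAC against wild-type mock called 2 (0.00902%) and had 1313 (5.92%). Mutant NAC against wild-type NAC called 0 in limma and had 1590 (7.17%), and array weights and the filter at the median level gave 4 and 2 calls there. The root mean square log2 difference over all genes was 0.262 between mutant NAC and wild-type mock. It was 0.222 between mutant NAC and mutant mock, 0.225 between mutant mock and wild-type mock, 0.226 between wild-type NAC and wild-type mock, and 0.235 between mutant NAC and wild-type NAC. No test compared these values with each other.

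Between single arrays, the 9 pairs of a mutant NAC and a wild-type mock array lay 0.402 apart on average (root mean square log2 difference, range 0.361 to 0.454). Wild-type mock arrays lay 0.379 from each other on average and mutant NAC arrays 0.37, beside 0.402 between the groups. Mutant NAC replicate 1 lay 0.437 to 0.454 from the wild-type mock arrays, and the other two mutant NAC arrays lay 0.361 to 0.394 from them. Mutant NAC replicate 1 and wild-type mock replicate 1 also had the lowest weights that limma gave to any array, 0.541 and 0.71, against 0.87 to 1.35 for the rest. With both left out, the count of called genes was 0, with 2 arrays left in each group.

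**Figure D1:**
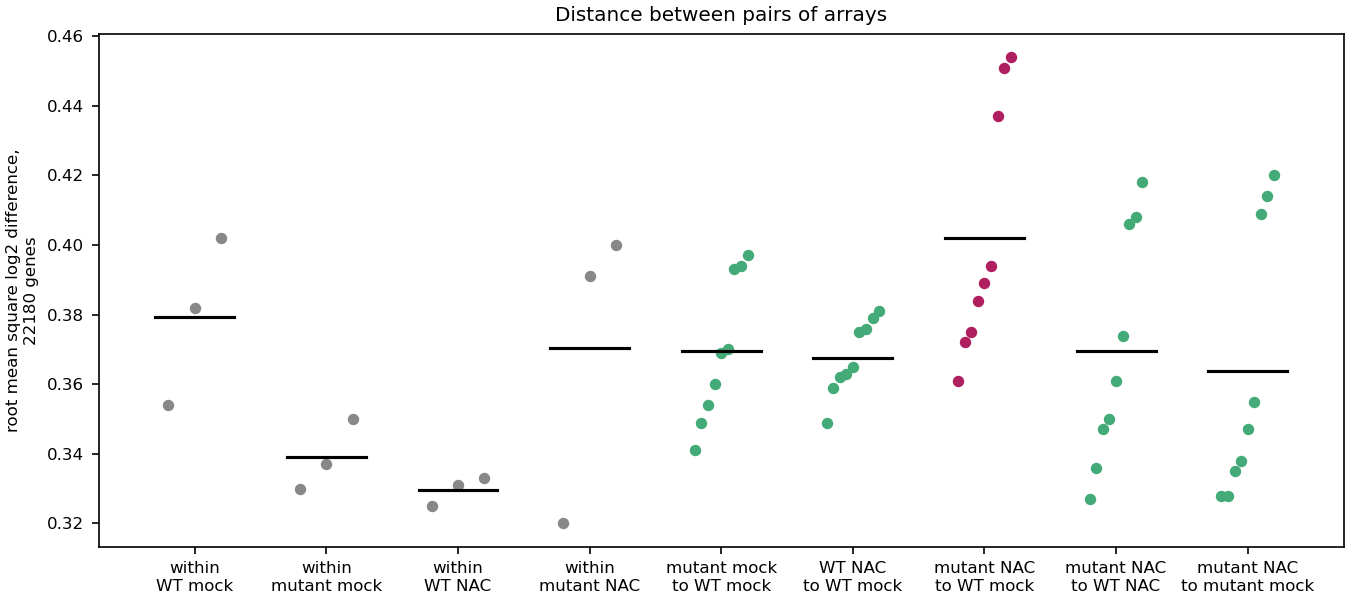
Root mean square log2 difference over 22180 genes between pairs of arrays, within each group (grey points) and between groups (green points, with mutant NAC to wild-type mock in red); each point is 1 pair and the black line the mean. The 9 pairs of mutant NAC and wild-type mock arrays run from 0.361 to 0.454 with a mean of 0.402, and pairs within wild-type mock average 0.379.

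Of Sca1 and Kit, the markers displayed in the gate, only Kit was measured. Kit gave 9.17, 9.21 and 9.24 in wild-type mock and 8.74, 8.86 and 8.83 in mutant NAC. Kit, the receptor used in the sort, was thus lower on all 3 treated mutant arrays, by a log2 difference of -0.40 (SE 0.11, adjusted p = 0.218), which did not pass the test. Cd34 lay between 9.87 and 10.50 on the 6 arrays and Cd48 between 8.05 and 8.53. Ly6a, which encodes Sca1, had no probe set of its own and was not analysed here. Of the markers of cells outside the gate, 10 of 12 measured T and NK cell genes, 9 of 12 stroma and endothelium genes, 7 of 14 neutrophil genes, 4 of 13 B cell genes, 3 of 10 plasma cell genes and 1 of 10 erythroid genes had a mean under the median gene level of 3.17, beside 11089 of all 22180 genes. Mast cell and basophil genes were under that level in 4 of 10 cases, and monocyte and dendritic cell genes in 1 of 12. Many erythroid and B cell markers thus lay above that level, and the purity of the sort was not tested. All 12 arrays carried Xist at 10.90 to 11.19, and Eif2s3y, Kdm5d and Uty, which lie on the Y chromosome, reached 2.51 at most.

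Kmt2e, the targeted gene, gave 7.49, 7.39 and 7.68 in wild-type mock and 7.02, 7.33 and 7.01 in mutant NAC. All 3 treated mutant arrays were below all 3 wild-type mock arrays, with a log2 difference of -0.40 (SE 0.17, adjusted p = 0.431). In mutant mock the values were 7.51, 7.38 and 6.93. Where the probes lie in relation to the deleted part of the gene is not given in the sources used here, so a signal that remains does not check the genotype.

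AI506816, a gene beside Kmt2e with no function named in the files, fell. Its signal was 6.58, 6.61 and 5.87 in wild-type mock and 4.38, 4.81 and 4.37 in mutant NAC, a 3.56-fold difference (log2 difference -1.83, SE 0.25, adjusted p = 0.0381). It was also low in mutant mock, at 4.28, 3.89 and 3.29, and at the wild-type level in wild-type NAC, at 6.32, 6.25 and 6.40, so that both mutant groups lay below both wild-type groups. The comparison of mutant mock with wild-type mock called it as well (log2 difference -2.53, adjusted p = 0.00313). On the other side of Kmt2e, Srpk2, which encodes a kinase of splicing factors, gave 6.93, 6.52 and 7.17 in wild-type mock and 7.63, 7.56 and 7.54 in mutant NAC (log2 difference 0.70, adjusted p = 0.13). Srpk2 stood at 7.58, 7.73 and 7.60 in mutant mock and did not pass the test in the treated mutant. AI506816 has a clone name, falls outside the rule for named genes and was singled out after its values were seen.

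Btg2, an antiproliferative gene induced by p53 and by growth signals, fell. It gave 9.42, 9.25 and 9.56 in wild-type mock and 8.41, 8.42 and 8.55 in mutant NAC. The drop was 1.93-fold (log2 difference -0.95, SE 0.12, adjusted p = 0.0272), and the SD within either group was at most 0.16. Mutant mock lay at 8.90, 8.85 and 8.79 and wild-type NAC at 9.04, 9.07 and 8.87. Both of those groups sat between the compared ones, and their differences from wild-type mock, -0.56 and -0.42, did not pass the test.

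Btg2 is a member of the immediate early list, genes transcribed within minutes of a stimulus, several of them through cyclic AMP response elements (CRE, searched as TGACGTCA on both strands). The 250 bases before the start of transcription, from RefSeq on GRCm38.p6, held this element in Btg2 and in Dusp1, a phosphatase that switches off MAP kinases, which were 2 of the 15 list members with a promoter (13.3%), beside 2.3% of the promoters of 16990 tested genes. Both sequences are shown because the 2 genes share the element and differ in their values: Btg2 fell, and Dusp1 had a log2 difference of -0.22 (adjusted p = 0.648). The promoter of Btg2 lies at chr1:134079156-134079405 and that of Dusp1 at chr17:26508473-26508722, both on the minus strand and printed 5′ to 3′ in the direction of transcription, with the element in capitals.
Btg2: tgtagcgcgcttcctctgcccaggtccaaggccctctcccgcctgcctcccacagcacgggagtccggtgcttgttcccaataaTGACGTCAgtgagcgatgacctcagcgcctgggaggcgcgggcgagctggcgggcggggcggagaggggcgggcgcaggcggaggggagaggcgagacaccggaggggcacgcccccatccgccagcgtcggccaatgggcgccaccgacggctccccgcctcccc
Dusp1: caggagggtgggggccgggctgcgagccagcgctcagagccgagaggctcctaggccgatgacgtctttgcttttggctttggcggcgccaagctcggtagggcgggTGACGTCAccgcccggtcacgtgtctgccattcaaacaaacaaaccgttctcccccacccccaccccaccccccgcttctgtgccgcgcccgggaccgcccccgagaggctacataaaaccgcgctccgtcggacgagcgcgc
A match to the element is a description of these letters and not a measured site. The CArG box, the binding motif of serum response factor, was found in Egr2 and Zfp36, 2 of the same 15 promoters, beside 1.49% of all.

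Lax1 encodes a membrane adaptor that dampens signalling from lymphocyte receptors, and it fell. Its values were 5.89, 6.62 and 6.39 in wild-type mock and 5.0, 4.53 and 4.98 in mutant NAC, 2.76-fold lower (log2 difference -1.46, SE 0.21, adjusted p = 0.0471). Mutant mock lay at 5.54, 5.22 and 5.72 and wild-type NAC at 5.69, 5.92 and 5.39, with means between those of the compared groups. All 3 mutant NAC arrays were below every other array of the series.

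Asb13, an adaptor of ubiquitin ligases, fell from 5.08, 4.96 and 5.07 in wild-type mock to 3.90, 4.07 and 3.72 in mutant NAC. The difference was 2.2-fold (log2 difference -1.14, SE 0.17, adjusted p = 0.0479). Wild-type NAC stood at 4.39, 3.97 and 4.49 and overlapped with the treated mutant, and mutant mock stood at 4.95, 4.60 and 4.41. Chrnb1, a subunit of the muscle acetylcholine receptor, fell from 5.10, 5.11 and 5.20 to 3.93, 4.27 and 4.28, a difference of 1.97-fold (log2 difference -0.98, SE 0.14, adjusted p = 0.0471). Here mutant mock, at 4.02, 4.08 and 4.45, overlapped with the treated mutant, and wild-type NAC, at 4.55, 4.51 and 4.44, lay between.

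Nudcd2, a chaperone-linked protein with a nuclear distribution domain, rose. It gave 4.57, 4.16 and 4.23 in wild-type mock and 5.70, 6.14 and 5.42 in mutant NAC, 2.7-fold higher (log2 difference 1.43, SE 0.21, adjusted p = 0.0471). The means of the remaining groups lay between these, with 5.39, 4.79 and 5.47 in mutant mock and 4.91, 4.98 and 5.15 in wild-type NAC.

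Igkj1, a joining segment of the immunoglobulin kappa light chain, rose and was the gene with the smallest adjusted p. Its signal was 2.43, 2.55 and 3.52 in wild-type mock and 5.99, 4.99 and 5.57 in mutant NAC (log2 difference 2.68, SE 0.31, adjusted p = 0.0204). The wild-type mean was under the median gene level, so no fold is given for it. It was the 1 gene that also passed the test of mutant NAC against mutant mock, where the mutant mock values were 2.47, 2.57 and 2.56 (log2 difference 2.98, adjusted p = 0.00618). In wild-type NAC it was higher still, at 7.98, 7.17 and 7.21, and passed the test against wild-type mock there too (log2 difference 4.62, adjusted p = 3.44e-05), so that the groups with NAC and those without did not overlap. As an immunoglobulin segment Igkj1 is outside the rule for named genes and was singled out after its values were seen.

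The other kappa segments did not follow as a group. Of 14 kappa segments measured, Igkj1 among them, 10 were higher and 4 lower in the treated mutant, with a median of 0.125. The median turned to -0.18 without mutant NAC replicate 1 and to -0.185 without both arrays that stand apart, and was 0.26 without wild-type mock replicate 1. Single segments ran from -2.21 to 2.90 on the log2 scale, and 1 passed the test, Igkj1 itself. The median of the segments was 1.91 in wild-type NAC against wild-type mock, and -1.66 in mutant NAC against wild-type NAC. Among plasma cell markers, Jchain, the joining chain of secreted antibody, gave 5.68, 5.14 and 5.73 against 6.13, 4.84 and 3.04, and the plasma cell list summed to 432 to 496 linear signal units in wild-type mock and 411 to 502 in mutant NAC. The same list summed to 510 to 722 in wild-type NAC and 350 to 425 in mutant mock. Heavy chain segments had a median of 0.97 in wild-type NAC, -0.51 in mutant mock and -0.18 in mutant NAC, each against wild-type mock. The median in mutant NAC turned to 0.028 without mutant NAC replicate 3. The part of B lineage and plasma cells in the signal of Igkj1 was not tested.

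**Figure D2:**
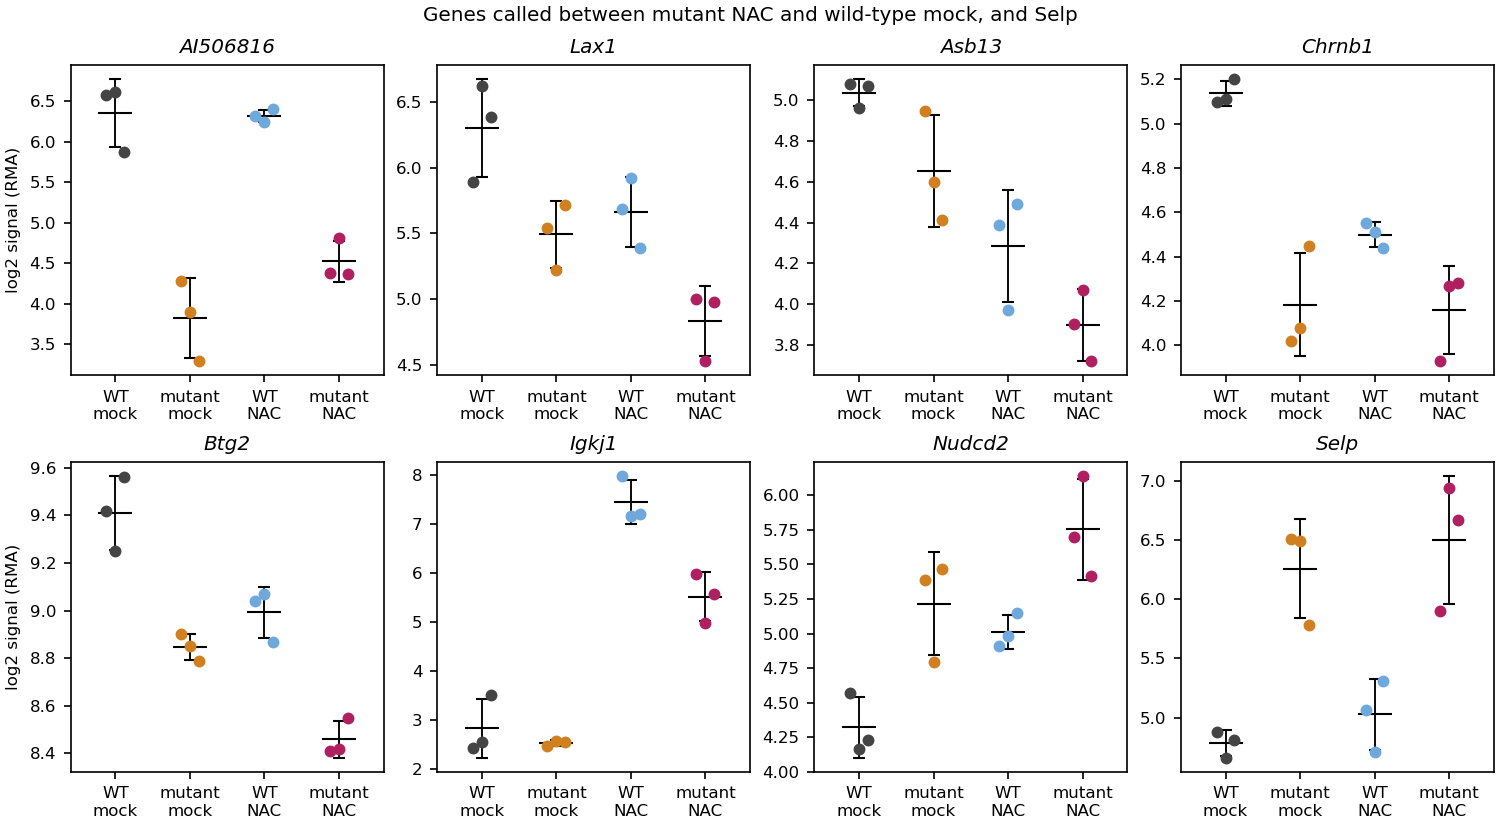
Log2 signal of the 7 called genes and of Selp on each array of the 4 groups (dots), with the group mean and SD (bars, n = 3); axes differ between genes and do not start at 0. Wild-type mock is at the left and mutant NAC at the right of each panel: AI506816, Lax1, Asb13, Chrnb1 and Btg2 are lower, and Igkj1, Nudcd2 and Selp higher, on all 3 mutant NAC arrays.

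Each call rested on a narrow margin. None of the 7 passed when the fit used the 6 compared arrays alone or when all probe sets were tested. None passed either without wild-type mock replicate 2, without mutant NAC replicate 1 or without both arrays that stand apart. Igkj1 kept its call in the other alternatives. Btg2 also lost its call with the replicate number as a block and without wild-type mock replicate 3. Btg2 lost it too without mutant NAC replicate 2 and without wild-type NAC replicate 1 or 2. The direction of all 7 held in each of the 24 alternatives run. Many of these change only the spread, the genes tested or the threshold and cannot move a difference. Among those that can, the direction held without each single array of the compared groups and without both arrays that stand apart.

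Beyond Nudcd2, the genes nearest to the threshold among those higher in the treated mutant did not pass the test. Selp, the adhesion molecule P-selectin of platelets and endothelium, came nearest, at 4.88, 4.66 and 4.81 in wild-type mock and 5.90, 6.94 and 6.67 in mutant NAC (log2 difference 1.72, SE 0.26, adjusted p = 0.0516). Mutant mock had 6.51, 6.49 and 5.78 and wild-type NAC 5.06, 4.71 and 5.31, so that the 2 mutant groups overlapped and both lay above the wild-type groups. Selp passed in 8 of the 24 alternatives, among them the filter at the median level and the looser threshold of 0.10 itself. Tamm41, which acts in cardiolipin synthesis, had a log2 difference of 0.74 (adjusted p = 0.0577), and Ndufaf1, an assembly factor of respiratory complex I, had 0.96 (adjusted p = 0.0608). Tamm41 rested on 6.26, 6.42 and 6.36 in wild-type mock against 7.14, 7.08 and 7.04 in mutant NAC. Ndufaf1 rested on 5.25, 5.60 and 5.37 against 6.59, 6.20 and 6.32.

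The remaining higher genes of the rule had log2 differences from 0.64 to 1.19 and adjusted p-values from 0.0853 to 0.0942. They were Sec23ip (0.82), which acts at exit sites of the endoplasmic reticulum, Usp14 (0.86), the deubiquitinase of the proteasome, Snrpa1 (0.65), a U2 snRNP protein, Mtrex (0.77), an RNA helicase of the nuclear exosome, Nol10 (0.64), a nucleolar protein, Nxph3 (1.00), a neurexin ligand, Gatm (0.82), which catalyses a step of creatine synthesis, and Mir3097 (1.19). Gatm stood at 6.09, 5.82 and 5.77 in mutant mock and 6.09, 5.88 and 5.72 in wild-type mock, and at 6.55, 6.97 and 6.63 in mutant NAC. Both of its untreated groups thus lay at the same level, below the treated mutant. Wild-type NAC is not set beside them for Gatm, so a relation to NAC cannot be read from these values.

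Mir3097 is the microRNA gene of the rule. The array values were 2.48, 2.84 and 3.07 in wild-type mock and 3.87, 3.54 and 4.56 in mutant NAC, and 3.80, 3.56 and 3.62 in wild-type NAC, so that both NAC groups lay above wild-type mock (adjusted p = 0.0942 for the treated mutant). Mutant mock is not set beside them for Mir3097, so a relation to NAC cannot be read from these values. Whether the probe set reports the mature microRNA or its precursor is not given in the sources used here. The 2 mature sequences (RefSeq, GRCm38.p6, chr5:35021050-35021072 and chr5:35021094-35021115, plus strand) are printed with the seed, bases 2 to 8, in capitals, because the 2 arms carry different seeds.
miR-3097-5p: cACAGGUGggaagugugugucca
miR-3097-3p: cUCAGACCuuucuaccugucag
Of 483 microRNA genes measured, 206 were higher and 269 lower in the treated mutant, with a median of -0.03.

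The lower genes of the rule beyond the called ones did not pass the test, and Plek came nearest to the threshold. Plek, the protein kinase C substrate pleckstrin, gave 8.29, 8.25 and 8.40 in wild-type mock and 7.69, 7.51 and 7.30 in mutant NAC (log2 difference -0.81, SE 0.13, adjusted p = 0.0608). Lat2, an adaptor of mast and B cell receptors, gave 7.76, 6.92 and 7.50 against 6.24, 6.14 and 6.26 (log2 difference -1.18, adjusted p = 0.086). Fcrl1, an Fc receptor-like protein of B cells, gave 4.66, 4.23 and 4.56 against 3.73, 3.66 and 3.74 (log2 difference -0.77, adjusted p = 0.0839). The groups did not overlap for any of these 3 genes.

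Ccl4, a chemokine of activated blood cells, gave 9.25, 9.24 and 10.01 in wild-type mock and 8.24, 7.96 and 8.34 in mutant NAC, with 8.79, 8.63 and 9.10 in mutant mock and 8.43, 8.52 and 8.93 in wild-type NAC (log2 difference -1.32, adjusted p = 0.0689). Its neighbour in function Ccl3 gave 9.34, 9.24 and 9.91 against 8.10, 8.65 and 8.30 (log2 difference -1.15, adjusted p = 0.0856). For both chemokines the treated mutant had the lowest mean of the 4 groups. Gcnt2, a glycosyltransferase of blood group I antigens, had -0.95 (adjusted p = 0.0747), and the zinc finger genes Zfp408 and Zfp972 had -0.98 and -1.55 (adjusted p = 0.0689 and 0.0847). Zfp972 was as low or lower in wild-type NAC, at 3.27, 3.17 and 2.53, as in mutant NAC, at 3.71, 3.56 and 2.84, with 5.21, 4.89 and 4.66 in wild-type mock.

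The pathway lists that follow were not tested as sets. Their members are counted by direction and set beside all genes, of which 5.14% were higher and 5.37% lower at an unadjusted p under 0.05, while 7.41% had all 3 treated mutant arrays above and 6.79% all 3 below the wild-type mock arrays. The share of all genes that passed the adjusted test was 0.00902% in the higher and 0.0225% in the lower direction.

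Immediate early genes were lower in the treated mutant. Of 18 measured, 17 were lower and 1, Egr2, was higher (0.03, turning to -0.155 without both arrays that stand apart), with a median log2 difference of -0.44 beside 0 for all genes. Btg2 passed the test, 11 were lower at an unadjusted p under 0.05, and for 10 the groups did not overlap. Egr1, a zinc finger factor induced by growth factor signals, gave 8.49, 8.32 and 8.35 in wild-type mock and 6.43, 7.54 and 7.12 in mutant NAC (log2 difference -1.36, adjusted p = 0.106). Nr4a1, an orphan nuclear receptor linked to quiescence of blood stem cells, gave 10.51, 10.34 and 10.84 against 8.95, 9.84 and 9.66 (log2 difference -1.08, adjusted p = 0.0942). For Egr1 and Nr4a1 mutant NAC replicate 1 was the lowest array. Egr3 had -0.95 (adjusted p = 0.37), and the AP-1 subunits Jun and Junb had -0.60 and -0.54 (adjusted p = 0.227 and 0.339).

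The same list had a median of -0.32 in mutant mock and -0.15 in wild-type NAC, each against wild-type mock, and -0.26 in mutant NAC against mutant mock. Its summed linear signal ran from 7067 to 9262 on the wild-type mock arrays and from 4121 to 6139 on the mutant NAC arrays, with 6411 to 6555 in mutant mock and 6580 to 7176 in wild-type NAC. The compared groups did not overlap in this sum.

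Genes of NF-kB and inflammation were lower by less. Of 17 measured, 16 were lower and 1, Il6, was at 0, with a median of -0.24, or -0.14 without wild-type mock replicate 3 and -0.39 over the members that passed the filter at the median level. None passed the test, and Ccl4 and Ccl3, described above, were the 2 under an adjusted p of 0.10. Nfkbiz, an atypical inhibitor of NF-kB, had -0.65 (adjusted p = 0.407) and Bcl3, its relative, -0.59 (adjusted p = 0.534). Bcl3 rested on mutant NAC replicate 1, which gave 4.72 beside 5.84 and 6.14 on the other two, and its difference was 0.035 without both arrays that stand apart. A kappa B motif was found in 6 of the 13 list members with a promoter (46.2%), beside 9.15% of all promoters. The list was drawn up from NF-kB targets and inflammatory cytokines, so this share is not a result of the arrays. Ccl3 was not among the 6, and Ccl4 had no promoter sequence to search.

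**Figure D3:**
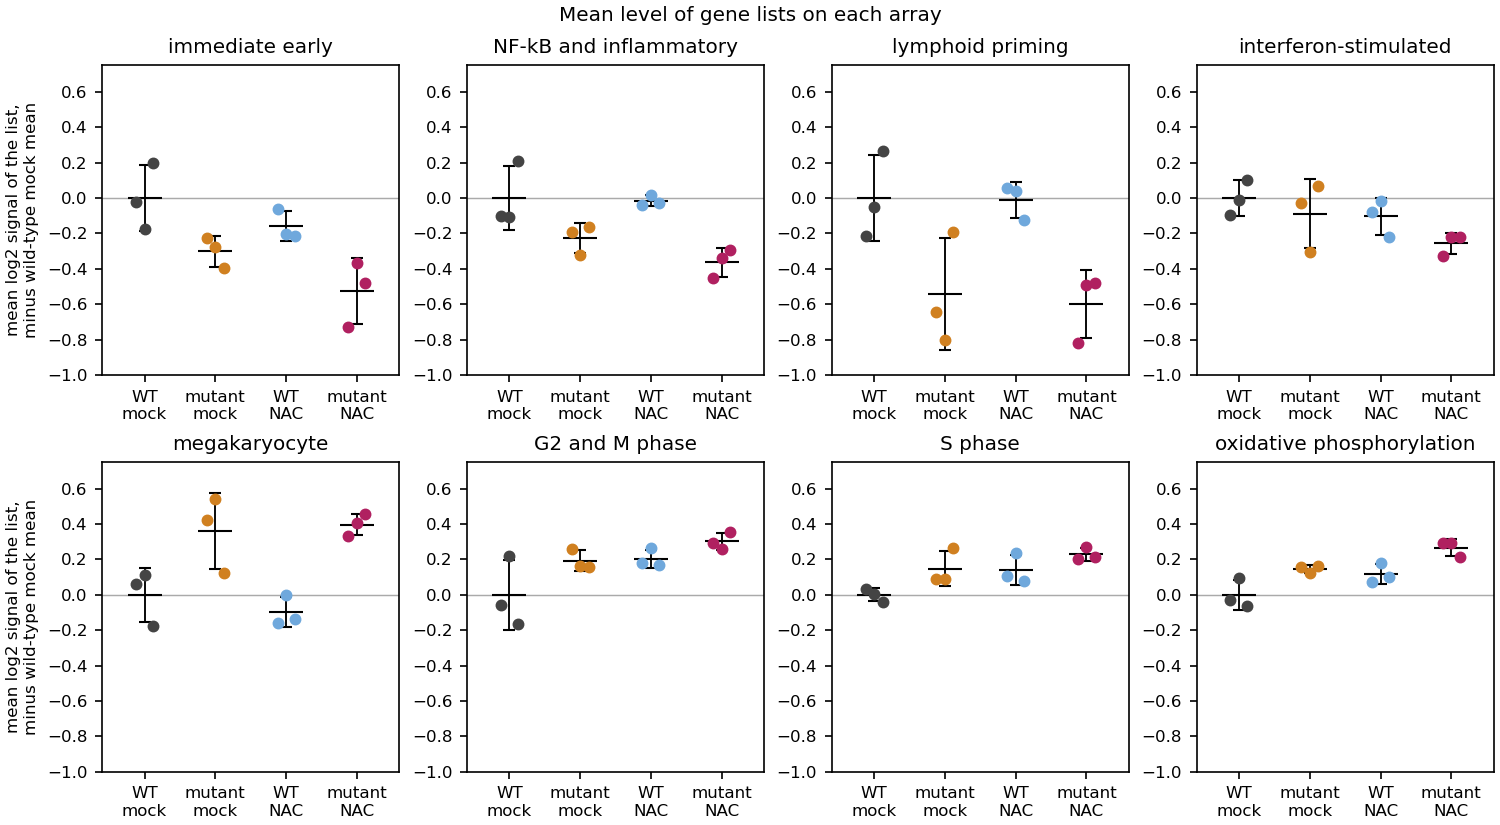
Mean log2 signal of the members of 8 gene lists on each array, minus the wild-type mock mean (dots), with the group mean and SD (bars, n = 3). The treated mutant has the lowest mean of the 4 groups for the immediate early, NF-kB and interferon-stimulated lists and the highest for the S phase, G2 and M phase and oxidative phosphorylation lists, and both mutant groups have low means for lymphoid priming and high means for megakaryocyte genes.

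Genes of lymphoid priming, which multipotent progenitors switch on before the lymphoid fates, were lower. Of 14 measured, 13 were lower and 1 higher, with a median of -0.46. Lax1 passed the test, 7 were lower at an unadjusted p under 0.05, and for 6 the groups did not overlap. Ltb, the membrane anchor of lymphotoxin, gave 7.59, 7.27 and 7.19 in wild-type mock and 5.27, 6.14 and 5.99 in mutant NAC (log2 difference -1.55, adjusted p = 0.0942). Flt3, the cytokine receptor that marks lymphoid-primed progenitors, gave 8.82, 8.94 and 9.35 against 7.26, 7.96 and 8.32 (log2 difference -1.19, adjusted p = 0.106). Dntt, the terminal transferase of antigen receptor genes, gave 9.21, 9.97 and 10.19 against 8.54, 9.15 and 8.97 (log2 difference -0.90, adjusted p = 0.312). For Ltb, Flt3 and Dntt all treated mutant arrays were below all wild-type mock arrays.

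The list had negative medians in both mutant groups. Its median was -0.51 in mutant mock against wild-type mock, -0.01 in wild-type NAC against wild-type mock and -0.12 in mutant NAC against mutant mock. Ighm, the mu heavy chain, differed from this pattern, with 8.33, 8.04 and 9.30 in mutant mock, 10.22, 10.17 and 9.16 in mutant NAC and 10.21, 9.45 and 10.65 in wild-type mock (log2 difference -0.25 against wild-type mock, adjusted p = 0.877). The treated mutant overlapped with the untreated wild type for Ighm, and the sign turned without mutant NAC replicate 3 (0.092) or wild-type mock replicate 3 (0.02). In bulk samples of sorted cells, fewer cells of a type and less RNA per cell cannot be told apart.

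B cell genes had a median of -0.20, or -0.40 over the members that passed the filter at the median level. Of 13 measured, 11 were lower and 2 higher, none passed the test, and for 5 lower ones the groups did not overlap. Igll1, a surrogate light chain, had -1.11 (adjusted p = 0.35), Blnk, an adaptor of the B cell receptor, -0.76 (adjusted p = 0.18) and Pou2af1, a B cell coactivator, -0.75 (adjusted p = 0.493). Igll1 gave 4.90, 2.83 and 3.98 in wild-type mock and 2.53, 2.90 and 2.96 in mutant NAC, so that the groups overlapped. The summed linear signal of the list went the other way, with 1594 to 1746 in wild-type mock and 1758 to 2238 in mutant NAC and no overlap. Cd24a, the brightest member and not confined to B cells, gave 10.39, 10.59 and 10.53 against 11.03, 10.77 and 10.58.

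Megakaryocyte genes were higher. Of 14 measured, 12 were higher and 2 lower, with a median of 0.23, which became 0.39 without wild-type mock replicate 2. None passed the test, 5 were higher at an unadjusted p under 0.05, and for 6 all treated mutant arrays were above all wild-type mock arrays. Pf4, platelet factor 4, gave 6.53, 5.91 and 5.4 in wild-type mock and 7.91, 7.42 and 6.78 in mutant NAC (log2 difference 1.42, adjusted p = 0.209), with 6.65, 6.83 and 5.27 in mutant mock and 5.79, 6.13 and 5.95 in wild-type NAC. For Pf4 all 3 treated mutant arrays lay above all wild-type mock arrays and overlapped with mutant mock. For Selp both mutant groups lay above the wild-type groups. Cd9, a tetraspanin, had 0.46 (adjusted p = 0.473), but 0.0083 when its probe sets were averaged, and Treml1 and Itga2b, the platelet integrin subunit, both had 0.42 (adjusted p = 0.474 and 0.408). Gp9, a subunit of the von Willebrand factor receptor, was lower on all 3 arrays, with -0.30 (adjusted p = 0.728). The summed signal of the list was 648 to 694 in wild-type mock, 829 to 917 in mutant NAC, 737 to 983 in mutant mock and 545 to 632 in wild-type NAC.

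Stem cell genes leaned lower, and mutant NAC replicate 1 decided how far. Of 23 measured, 14 were lower and 9 higher, with a median of -0.24, which became -0.05 without that array. None passed the test, and 8 were lower and 1 higher at an unadjusted p under 0.05. Hlf, a transcription factor of long-term stem cells, gave 7.35, 7.87 and 7.76 in wild-type mock and 6.79, 7.08 and 6.89 in mutant NAC (log2 difference -0.74, adjusted p = 0.141). Pdzk1ip1 had -0.68 (adjusted p = 0.339), Runx1, the core binding factor subunit, -0.63 (adjusted p = 0.195) and Hoxa9, a homeobox factor of self-renewal, -0.48 (adjusted p = 0.366). For these 4 genes all treated mutant arrays were below all wild-type mock arrays. Hoxb5, another marker of long-term stem cells, was higher, with 0.40 (adjusted p = 0.433). Mutant mock against wild-type mock had a list median of 0.13, wild-type NAC against wild-type mock -0.21, and mutant NAC against mutant mock -0.30.

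Erythroid, granulocyte and monocyte progenitor, and mast cell genes had medians of 0.38, 0.31 and 0.36, and single arrays moved each of them by over 1.5 times. None of their members passed the test. For the erythroid list, with 9 of 10 measured genes higher, the median was 0.14 without mutant NAC replicate 1. Ermap, an erythroid membrane protein, gave 3.53, 3.01 and 3.18 in wild-type mock and 5.04, 4.58 and 4.29 in mutant NAC (log2 difference 1.40, adjusted p = 0.13), and Car1, carbonic anhydrase 1, gave 7.99, 7.08 and 6.08 against 9.14, 8.04 and 7.97 (log2 difference 1.33, adjusted p = 0.345). Rhd had 0.74 (adjusted p = 0.545), or 0.11 without mutant NAC replicate 1, and the erythroid factor Klf1 0.57 (adjusted p = 0.422). The groups did not overlap for Ermap and overlapped for Car1, Rhd and Klf1.

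Of 17 granulocyte and monocyte progenitor genes 14 were higher, and the list median ran from 0.16 without wild-type mock replicate 3 to 0.54 without wild-type mock replicate 1, and was 0.72 without both arrays that stand apart. Ms4a3, a marker of these progenitors, gave 9.18, 7.91 and 7.97 in wild-type mock and 9.02, 9.10 and 9.47 in mutant NAC (log2 difference 0.84, adjusted p = 0.515). Ly86 had 0.76, Fcgr3 0.58 and the myeloid factor Irf8 0.53 (adjusted p = 0.52, 0.615 and 0.493). Wild-type mock replicate 1 overlapped with the treated mutant for all of these 4 genes. The progenitor list had a median of 0.36 in wild-type NAC and -0.08 in mutant mock, each against wild-type mock. Its median was -0.10 in mutant NAC against wild-type NAC. Of 10 mast cell and basophil genes 6 were higher and 4 lower, and without wild-type mock replicate 2 their median was 0.12. Fcer1a, the alpha chain of the IgE receptor, gave 1.98, 1.69 and 2.17 against 3.06, 2.71 and 2.41 (log2 difference 0.78, adjusted p = 0.175), all of them under the median gene level. Hdc, histidine decarboxylase, had 0.67 and Ms4a2 0.64 (adjusted p = 0.555 and 0.366).

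**Figure D4:**
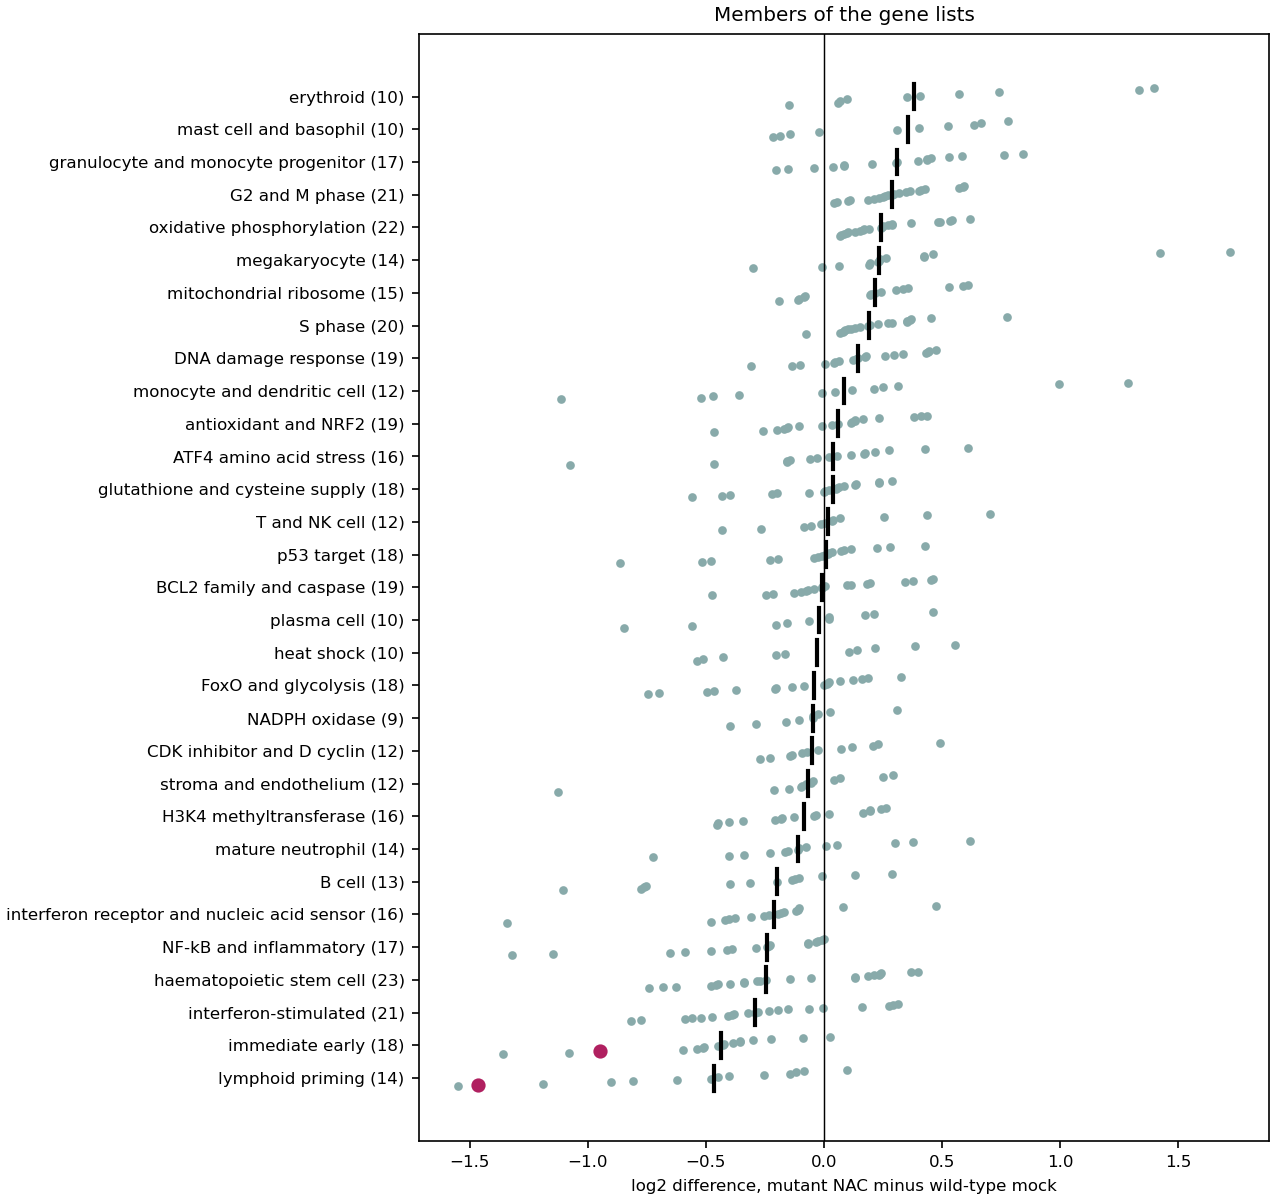
Log2 difference of mutant NAC minus wild-type mock for each measured member of the pathway and cell type lists, without the neighbours of Kmt2e (points; the number of measured members stands in brackets), with the list median (black line). The lists are ordered by median from -0.46 for lymphoid priming to 0.38 for erythroid genes, and the 2 large red points are Lax1 and Btg2, the members that passed the test.

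Genes of the cell cycle were slightly higher. All 21 measured G2 and M phase genes were higher, with a median of 0.29, and for 11 of them the treated mutant arrays were all above the wild-type mock arrays. None passed the test, and 9 had an unadjusted p under 0.05. Aurka, the mitotic kinase, gave 6.21, 6.45 and 6.13 in wild-type mock and 6.54, 6.90 and 7.13 in mutant NAC (log2 difference 0.59, adjusted p = 0.233). Cdk1, the kinase that starts mitosis, had 0.59 (adjusted p = 0.26), and the spindle motors Kif20a and Kif11 had 0.57 and 0.41 (adjusted p = 0.194 and 0.369). The list median was 0.20 in mutant mock and 0.22 in wild-type NAC against wild-type mock, and 0.10 in mutant NAC against mutant mock. In the plot of list means by array, wild-type mock replicate 2 lay within the range of mutant mock and of wild-type NAC.

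Of 20 S phase genes 19 were higher and Cdt1 was lower (-0.08), with a median of 0.19. Rrm2, the small subunit of ribonucleotide reductase, gave 7.39, 7.78 and 7.51 in wild-type mock and 8.78, 8.17 and 8.06 in mutant NAC (log2 difference 0.78, adjusted p = 0.153). Pola1, the catalytic subunit of DNA polymerase alpha, had 0.45, the origin factor Cdc6 0.37 and Rrm1, the large subunit of the reductase, 0.36 (adjusted p = 0.268, 0.493 and 0.237). None passed the test, and 6 had an unadjusted p under 0.05. The summed signal of the S phase list was 4549 to 4626 in wild-type mock and 5283 to 5399 in mutant NAC, without overlap. It was 4981 to 5453 in mutant mock and 4794 to 5239 in wild-type NAC, so that wild-type mock lay below every other group. The list median was 0.125 in mutant mock and 0.16 in wild-type NAC, each against wild-type mock. The erythroid and myeloid progenitor lists above moved in the same direction, and their part in the cell cycle lists was not tested.

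Genes of the respiratory chain were also higher. All 22 measured oxidative phosphorylation genes were higher, with a median of 0.24, 7 of them at an unadjusted p under 0.05 and 8 without overlap of the groups, and none passed the test. Cox5b, a subunit of cytochrome c oxidase, had the greatest difference of the list, 0.62, from 8.53, 9.27 and 9.12 to 9.66, 9.58 and 9.54 (adjusted p = 0.348). Ndufa9, of complex I, gave 7.39, 7.46 and 7.34 against 7.84, 8.0 and 7.98 (log2 difference 0.54, adjusted p = 0.13), and Cycs, cytochrome c, gave 9.35, 9.25 and 9.38 against 9.91, 9.91 and 9.76 (log2 difference 0.53, adjusted p = 0.141). Ndufs1 had 0.49 (adjusted p = 0.404). For all 4 genes the groups did not overlap. The list medians were 0.14 in mutant mock and 0.11 in wild-type NAC against wild-type mock, and 0.10 in mutant NAC against mutant mock.

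Of 15 genes of the mitochondrial ribosome 10 were higher and 5 lower, with a median of 0.22 and 4 at an unadjusted p under 0.05, all higher. Mrps22 had 0.61, Mrps18b 0.59 and Mrpl15 0.53 (adjusted p = 0.13, 0.229 and 0.209). Mrps22 gave 6.30, 6.07 and 5.93 in wild-type mock and 6.92, 6.55 and 6.66 in mutant NAC, without overlap.

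Gene families collected by their symbols, after the values were seen and without a test, extended these counts. Of 39 proteasome subunits 36 were higher, with a median of 0.24, and 14 had an unadjusted p under 0.05. Complex I subunits and assembly factors (34 of 42 higher, median 0.17), all mitochondrial ribosomal proteins (50 of 71 higher, median 0.14, or 0.06 without wild-type mock replicate 3) and nucleolar proteins (13 of 18 higher, median 0.28) lay above 0. Cytosolic ribosomal proteins had a median of 0.07, with 45 of 60 higher, and 0.028 without wild-type mock replicate 1. Zinc finger proteins leaned the other way, with 163 of 370 higher, 206 lower and a median of -0.04, and 38 of them were lower and 9 higher at an unadjusted p under 0.05. Olfactory receptors, which blood cells do not use and of which 1071 of 1105 had a mean under the median gene level, had a median of -0.04, beside the median of the zinc finger proteins.

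**Figure D5:**
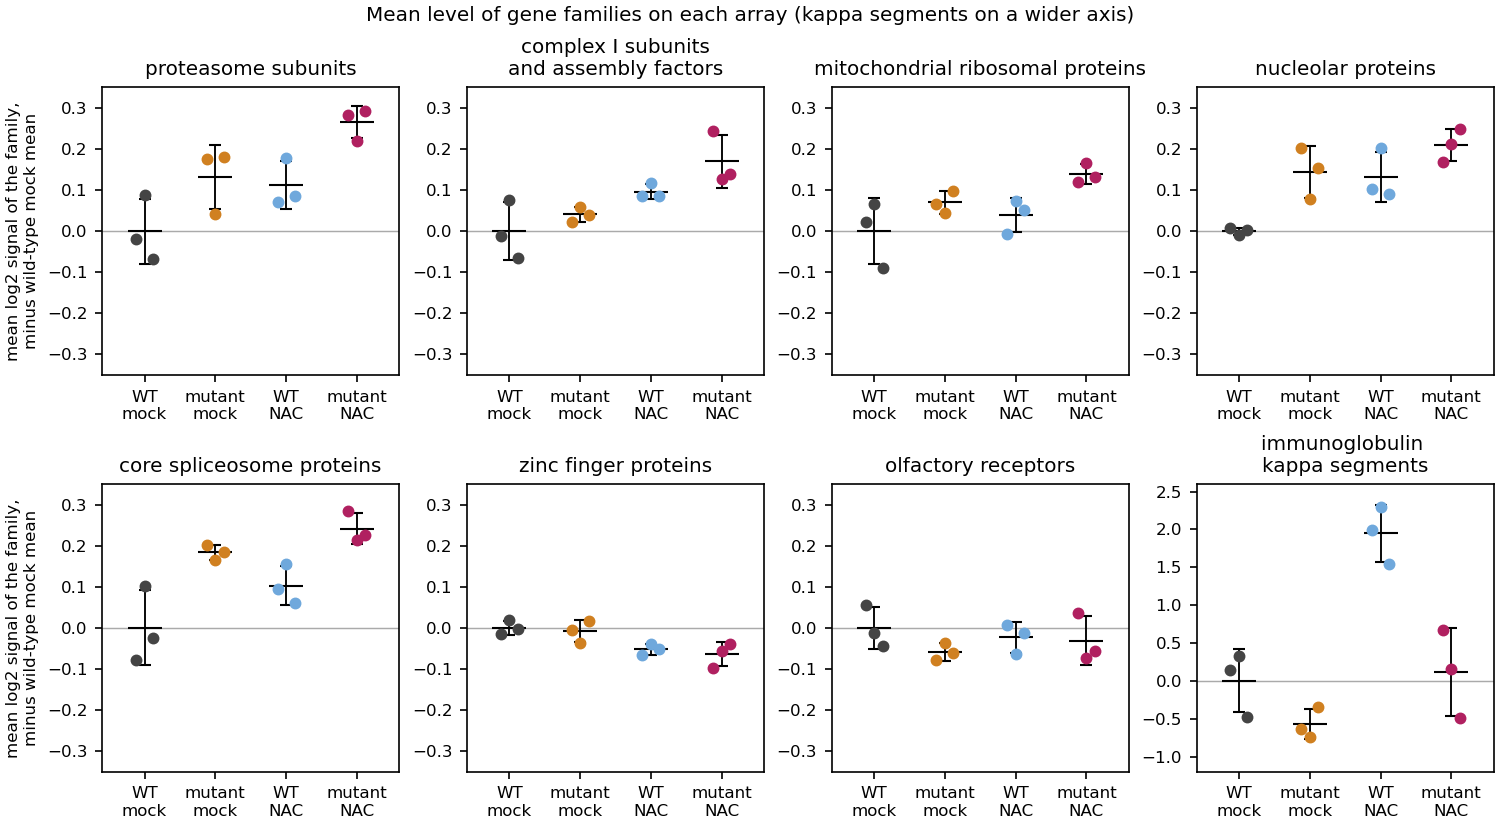
Mean log2 signal of 8 gene families on each array, minus the wild-type mock mean (dots), with the group mean and SD (bars, n = 3); the kappa segments have a wider axis. The treated mutant arrays are all above the wild-type mock arrays for proteasome subunits, and for kappa segments wild-type NAC is highest while mutant NAC overlaps with wild-type mock.

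Genes of the antioxidant response lay on both sides of 0. Of 19 measured 11 were higher and 8 lower, with a median of 0.06, and none passed the test. Hmox1, heme oxygenase, had the largest difference of the list, -0.46, with 5.52, 4.43 and 4.89 in wild-type mock and 3.81, 4.34 and 5.30 in mutant NAC, which overlapped (adjusted p = 0.68), and its sign turned, to 0.16, without both arrays that stand apart. Gclm, the modifier subunit of the enzyme that starts glutathione synthesis, had 0.44 (adjusted p = 0.519), Txn1, thioredoxin, 0.41 (adjusted p = 0.268) and Prdx3, the mitochondrial peroxiredoxin, 0.38 (adjusted p = 0.363). Txn1 gave 7.53, 7.93 and 7.61 in wild-type mock and 8.02, 8.22 and 8.06 in mutant NAC, without overlap. Genes of glutathione and cysteine supply had a median of 0.04 over 18 measured, with Gstp1, a glutathione transferase, at -0.56 (adjusted p = 0.344). Gstp1 gave 10.37, 10.07 and 10.09 in wild-type mock, 9.31, 9.70 and 9.85 in mutant NAC, 9.38, 9.83 and 9.92 in mutant mock and 10.05, 9.41 and 9.75 in wild-type NAC, so that wild-type mock was above every other array. NADPH oxidase genes, which make superoxide, had a median of -0.05 over 9 measured, turning to 0.155 without both arrays that stand apart. Rac2, the small GTPase of the oxidase, had -0.40 (adjusted p = 0.417), and Nox4, a catalytic subunit, 0.31 (adjusted p = 0.559).

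Interferon-stimulated genes were lower rather than higher, without a call. Of 21 measured 17 were lower and 4 higher, with a median of -0.29, or -0.19 without mutant NAC replicate 1. Zbp1, a sensor of Z-form nucleic acids, gave 5.03, 5.82 and 5.14 in wild-type mock and 4.73, 4.17 and 4.64 in mutant NAC (log2 difference -0.82, adjusted p = 0.426). Rtp4 had -0.77 (adjusted p = 0.264), Rsad2, the antiviral enzyme viperin, -0.59 (adjusted p = 0.416) and Xaf1 -0.56 (adjusted p = 0.264). Rtp4 gave 7.25, 7.88 and 7.09 in wild-type mock, 6.44, 6.90 and 6.56 in mutant NAC, 6.95, 6.36 and 7.10 in mutant mock and 6.49, 6.62 and 7.05 in wild-type NAC. For Zbp1, Rtp4 and Xaf1 all treated mutant arrays lay below all wild-type mock arrays. List medians were -0.08 in mutant mock and -0.11 in wild-type NAC against wild-type mock, and -0.16 in mutant NAC against mutant mock.

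Receptors of interferon and sensors of nucleic acids had a median of -0.21, with 14 of 16 lower and none past the test. Tlr7, the sensor of single-stranded RNA, gave 3.48, 4.08 and 5.60 in wild-type mock and 3.09, 3.05 and 3.0 in mutant NAC (log2 difference -1.34, adjusted p = 0.232). Ddx58, the RNA sensor RIG-I, had -0.48 (adjusted p = 0.348). Cgas, the cytosolic DNA sensor, was the greatest of the 2 that were higher, with 3.80, 3.63 and 3.82 against 4.28, 4.07 and 4.32 (log2 difference 0.47, adjusted p = 0.374).

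Bid, the BH3-only protein of the series title, gave 4.62, 4.51 and 4.23 in wild-type mock and 4.93, 5.05 and 4.74 in mutant NAC (log2 difference 0.45, SE 0.14, adjusted p = 0.244). Mutant mock had 4.77, 5.0 and 4.82 and wild-type NAC 5.0, 4.99 and 5.12, so that wild-type mock was the lowest of the 4 groups and the other three overlapped. Over 19 genes of the BCL2 family and caspases the median was -0.01, and none passed the test. Bcl2l11, the BH3-only protein Bim, had -0.47 (adjusted p = 0.423), Apaf1, the scaffold of the apoptosome, 0.46 (adjusted p = 0.446) and Mtch2, the mitochondrial receptor of Bid, 0.38 (adjusted p = 0.366). Bcl2l11 gave 6.08, 6.13 and 6.80 in wild-type mock and 5.64, 5.93 and 6.02 in mutant NAC, without overlap.

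Genes of the DNA damage response had a median of 0.14, with 16 of 19 higher, and none passed the test. Brca2, of homologous recombination, gave 5.94, 5.91 and 6.20 in wild-type mock and 6.55, 6.46 and 6.46 in mutant NAC (log2 difference 0.47, adjusted p = 0.246), and mutant mock and wild-type NAC stood at 6.44 to 6.82 and 6.41 to 6.75. Prkdc, the DNA-dependent kinase, had 0.44 and Chek1, the checkpoint kinase, 0.43 (adjusted p = 0.366 and 0.458). Over 18 p53 targets the median was 0.01. Trp53cor1, a long noncoding RNA beside Cdkn1a, gave 6.02, 5.58 and 5.92 in wild-type mock, 4.67, 5.23 and 5.03 in mutant NAC and 6.55, 5.58 and 6.03 in mutant mock (log2 difference -0.86 against wild-type mock, adjusted p = 0.185). The sestrins differed in sign, with Sesn1 at -0.52 and Sesn2 at 0.43 (adjusted p = 0.384 and 0.466).

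FoxO and glycolysis genes had a median of -0.04 over 18 measured (-0.16 without mutant NAC replicate 1 and -0.1875 without both arrays that stand apart), with Txnip, the inhibitor of thioredoxin, as the lowest p of the list. Txnip gave 9.62, 9.36 and 9.62 in wild-type mock and 8.69, 9.14 and 8.68 in mutant NAC, with 9.30, 9.26 and 9.28 in mutant mock and 9.19, 9.02 and 9.09 in wild-type NAC (log2 difference -0.70, SE 0.14, adjusted p = 0.106). All wild-type mock arrays were above all arrays of the other groups. Pdk2, a kinase that holds back pyruvate dehydrogenase, had -0.74 and Foxo3, a factor of stem cell quiescence, -0.50 (adjusted p = 0.395 and 0.287). Genes of the ATF4 response had a median of 0.04 over 16 measured, with Vldlr, a lipoprotein receptor, at -1.08 and Asns, asparagine synthetase, at 0.61 (adjusted p = 0.13 and 0.235). Among 16 genes of the H3K4 methyltransferase family and partners, with a median of -0.08 that was -0.1575 without wild-type mock replicate 2, 0.0033 without mutant NAC replicate 1 and 0.05 without both arrays that stand apart, Ogt, the O-GlcNAc transferase that partners Mll5, and Kmt2a both had -0.45 (adjusted p = 0.287 and 0.359).

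Among markers of other cells none passed the test. Emcn, endomucin, which stem cells and endothelium share, gave 5.99, 6.15 and 6.44 in wild-type mock, 5.31, 4.68 and 5.21 in mutant NAC and 5.67, 6.27 and 6.22 in mutant mock (log2 difference -1.13 against wild-type mock, adjusted p = 0.086). The other 11 stroma and endothelium genes gave no adjusted p under 0.10, and the list median was -0.07. H2-Aa, a class II antigen chain, had -1.11, while the monocyte receptors Cx3cr1 and Ccr2 had 1.29 and 0.99 (adjusted p = 0.287, 0.235 and 0.173). Cx3cr1 gave 3.86, 4.12 and 4.81 in wild-type mock, 5.85, 5.01 and 5.79 in mutant NAC, 5.30, 5.04 and 5.56 in mutant mock and 6.12, 4.58 and 6.06 in wild-type NAC. Cxcr2, a chemokine receptor of neutrophils, had 0.62 and Chil3 -0.72 (adjusted p = 0.221 and 0.57), with a median of -0.11 over 14 neutrophil genes. That median was -0.0042 without wild-type mock replicate 1, -0.19 without mutant NAC replicate 3 and 0.0475 without both arrays that stand apart, and Chil3 itself was -0.16 without wild-type mock replicate 1.

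Beside AI506816 and Igkj1, described above, 2 genes were called in the comparisons of untreated mutant or treated wild type with wild-type mock, and they took different places in the treated mutant. 1190005I06Rik was called between mutant mock and wild-type mock, with 4.05, 4.0 and 4.40 against 2.72, 2.78 and 2.80 (log2 difference 1.38, adjusted p = 0.0117). In mutant NAC it stood at 2.97, 2.97 and 3.13, a log2 difference of 0.26 from wild-type mock (adjusted p = 0.611) and of -1.13 from mutant mock, where it did not pass the test. Gprc5b, an orphan receptor called between wild-type NAC and wild-type mock (log2 difference -1.19, adjusted p = 0.0291), gave 6.59, 7.07 and 6.96 in wild-type mock, 5.64, 5.84 and 5.57 in wild-type NAC and 5.88, 6.06 and 6.19 in mutant NAC (log2 difference -0.83, adjusted p = 0.0917). For AI506816 the treated mutant lay nearer by its mean to the untreated mutant than to either wild-type group. For 1190005I06Rik it lay nearer to the untreated wild type than to the untreated mutant. For Gprc5b it lay nearer to the treated than to the untreated wild type. Wild-type NAC is not set beside 1190005I06Rik, nor mutant mock beside Gprc5b, so the nearest of all groups is not given for these genes. The choice of 1190005I06Rik and Gprc5b was made with their values known. Both were picked for a large difference from the same wild-type mock arrays, which bears on where the treated mutant falls. These places were not tested.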

How the data were processed

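The deposited values are log2 signals of 41345 probe sets on 12 Affymetrix arrays. Per the submitters' processing notes, the authors used Affymetrix Power Tools and RMA, with no version named. RMA removes background, equalises the arrays by quantiles, summarises the probes of a set and compresses differences of dim sets. That the scale is log2 was inferred from the values, which run from 0.74 to 13.23. Probe sets with 1 symbol were used, keeping per symbol the one with the greatest mean on the 12 arrays, which gave 22180 genes, with no filter.

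A mean per group was estimated with lmFit and eBayes of limma 3.58.1 (R 4.3.3) on the 12 arrays together, leaving 8 residual degrees of freedom. The Benjamini-Hochberg adjustment ran across all genes, with a threshold of 0.05, after the procedure was tested on simulated data. The text names Kmt2e, Bid, Ly6a and Kit. It names the 12 genes per direction with the largest difference past the threshold, filled to 12 by smallest p. It names up to 4 members of each list with the largest difference. Predicted, clone-named and Rik genes and antigen receptor segments are outside this rule. Ighm, Egr2, Dusp1, Zfp36, Jun, Junb, Il6, Gp9, Hoxb5, Kif11, Cdt1, Cd24a, Cd34 and Cd48 are named for a statement about their list and were chosen after their values were seen. The comparison, its members and its lists were chosen with earlier results of these data known. Deviations of same-numbered replicates of the compared groups from their group means were nearly uncorrelated (correlations 0.0384, 0.031 and 0.00519). The labels give no pairing, and whether arrays of the same number share a batch was not tested. Of 23521 probe sets with 1 symbol, 23328 matched RefSeq (GRCm38.p6). Precision is limited by 3 arrays per group. The plots were made in matplotlib 3.10.9 (Python 3.11.15).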

Additional observations from a re-analysis of the deposited data

How the results depend on the processing

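The count of 7 genes called between mutant NAC and wild-type mock was 0 with the 6 compared arrays alone, 3 after centring on the median, 1 over all probe sets, 4 with the replicate number as a block and 51 at an adjusted p under 0.10. It ran from 0 to 15 without single arrays, the lowest without wild-type mock replicate 2, the highest without replicate 1 of that group, and 1 when mutant NAC replicate 1, or replicate 1 or 2 of wild-type NAC, was left out. The 1 gene left without mutant NAC replicate 1 was Selp, and without either wild-type NAC array it was Igkj1. The 1 call over all probe sets was none of the probe sets that stood for the 7 genes in the main test. Without both arrays that stand apart, an alternative chosen after seeing the data, it was 0. It was 8 with the filter at the median level, 5 with array weights, 8 after repeated quantile normalization, 10 with a trended robust variance, 10 when the probe sets of a symbol were averaged and 7 with a minimum log2 difference of 0.5. Of the 7 genes, Igkj1 kept its call in 19 of 24 alternatives, Btg2 in 14, AI506816 in 12, Nudcd2 in 10, Lax1 in 9, Chrnb1 in 6 and Asb13 in 5. These counts include the adjusted p under 0.10 and the minimum log2 difference of 0.5. Both reuse the main fit and could not remove any of the 7 calls. With the replicate block 2 of the 7 kept their call, Igkj1 and AI506816.

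Mutant NAC against mutant mock, with 1 call, gave 2 with array weights, 2 after quantile normalization, 0 over all probe sets, 3 at an adjusted p under 0.10, 0 to 2 without single arrays and 0 without both arrays that stand apart. Mutant mock against wild-type mock, with 2, gave 1 with the replicate block, 1 to 4 without single arrays and 0 without both. Wild-type NAC against wild-type mock, with 2, gave 5 over all probe sets and 1 to 5 without single arrays. Mutant NAC against wild-type NAC, with 0, gave 2 with the filter, 4 with array weights, 5 over all probe sets, 2 at an adjusted p under 0.10 and 0 to 3 without single arrays. The mean distance of 0.402 between arrays was 0.475 with the filter and 0.574 over all probe sets. Of the genes named, Egr2 changed sign to -0.024 with array weights and to -0.155 without both arrays that stand apart, and ran from -0.075 to 0.145 without single arrays. Bcl3 changed sign to 0.035 and Hmox1 to 0.16 without both, and Ighm ran from -0.58 to 0.092 without single arrays. Fewer arrays or a stricter or wider set of tests is part of several of these alternatives, and the cause was not tested for the rest. The medians of the BCL2 family, p53 target, glutathione, T and NK cell, and monocyte and dendritic cell lists also lay on either side of 0 over these alternatives. So did those of the heat shock list and of the CDK inhibitor and D cyclin list. The same held for heavy chain segments, olfactory receptors and microRNA genes.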
